A study of Homo sapiens with 9 samples.

Results

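MDA-MB-468 is an established cell line from a human triple-negative breast tumour, and in it 36 genes of fatty acid breakdown were examined after silencing of BBOX1. They were taken by symbol from the 27315 gene rows of the deposited table, and cover mitochondrial and peroxisomal oxidation and its regulators, without the carnitine shuttle. All 36 are in the table, and 35 had a mean level high enough to be tested, as did 13165 genes in all. Polyadenylated RNA was sequenced from 9 libraries: 3 with the BBOX1 hairpin sh1, 3 with the BBOX1 hairpin sh6 and 3 with a scrambled control hairpin, all carried in by lentivirus and kept under the antibiotic that fits the vector. Every group, controls included, thus carries a viral hairpin, and no time after infection is given. The protocol names target sequences for hairpins called sh1 and sh2 and none called sh6, so the sequence of sh6 is not stated. BBOX1 makes carnitine, on which long acyl chains are carried into mitochondria, so the comparison asks whether the enzymes beyond that step change their mRNA when BBOX1 mRNA is reduced. Carnitine itself was not measured.

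Fatty acid oxidation shortens acyl-CoA by repeated rounds of dehydrogenation, hydration, a second dehydrogenation and thiolytic cleavage. In mitochondria the first dehydrogenation passes electrons through the electron transfer flavoprotein and its dehydrogenase to ubiquinone, while peroxisomes use acyl-CoA oxidases that give hydrogen peroxide and handle very long and branched chains. The nuclear receptors PPARA and PPARD and the coactivators PPARGC1A and PPARGC1B are known to switch on many of these genes in liver and muscle, and acyl-CoA dehydrogenases of the same family act in the breakdown of branched-chain amino acids and lysine.

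Values are given as normalised counts, recovered from the deposited variance-stabilised values, and a change is called at an adjusted p under 0.05 in limma, with p adjusted over all 13165 genes. Log2 changes are differences of the deposited log2-like values, and folds are ratios of mean normalised counts. Both comparisons with the control use the same 3 control libraries. Recovered depths were 15738206 to 16223063 reads per library with sh1, 16034387 to 18847035 with sh6 and 16730340 to 19748437 in the controls. Replicate libraries of a group correlated over the genes tested with r of 0.996 to 0.998. Nothing says that the 3 libraries of a group were separate cultures, so the p-values reflect the scatter among the libraries alone, possibly a technical one. BBOX1 had 324, 346 and 328 normalised counts with sh1, 606, 618 and 581 with sh6 and 2703, 2785 and 2360 in the controls. Its mRNA was thus at 12.7% of the control mean with sh1 and at 23.0% with sh6 (limma, adjusted p = 3.73e-25 and 6.15e-22). Permuting the libraries exactly, 3 against 3 and two-sided, gave p = 0.1 for either hairpin, the smallest value possible. All 9 epithelial and basal markers examined, among them EGFR, KRT5 and EPCAM, passed the filter. Their summed count, to which EGFR and KRT8 gave most, was 163765 to 170895 with sh1, 168557 to 175897 with sh6 and 160528 to 175037 in the controls. Single markers were called in either direction. KRT5 was 1.51-fold and 1.77-fold higher with sh1 and sh6, and KRT14 1.9-fold higher with sh1 but 1.54-fold lower with sh6. KRT19 fell 1.34-fold with sh1 and EGFR 1.27-fold with sh6, and neither was called with the other hairpin. Of 4 hormone receptor and luminal markers, 3 passed (ESR1, ERBB2 and GATA3) and PGR was at 0 in every library, with summed counts of 1765 to 1801 with sh1, 1596 to 1876 with sh6 and 2121 to 2266 in the controls. Of 5 leucocyte markers, 1 passed the filter, CD14, and the summed count of the 5 was 330.0 to 456 with sh1, 183 to 222 with sh6 and 1372 to 1586 in the controls. PTPRC, the pan-leucocyte gene, averaged 3.39 counts with sh1, 0.319 with sh6 and 3.53 in the controls, too low to be tested, and CD3E and LYZ averaged at most 0.609 in any group. Of 4 endothelial markers, 1 passed, KDR, with summed counts of the 4 of 86.2 to 116 with sh1, 88.4 to 111 with sh6 and 237 to 267 in the controls. Of 6 fibroblast markers, 1 passed, COL1A1, with summed counts of the 6 of 286 to 352 with sh1, 313 to 395 with sh6 and 324 to 444 in the controls. The part of these markers in the results was not tested. In bulk RNA such as this, fewer cells with a transcript and less transcript per cell cannot be told apart.

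Promoter stretches of genes on which the results turn are shown here so that their sequences stand beside their values. With both hairpins, 7 of the 35 genes tested fell and 1 rose, where 19.4% of all genes fell and 18.9% rose. ETFA, HSD17B4, HIBCH and PPARD fell with both hairpins, IVD rose with both, and HSD17B10 had the largest log2 change of the 35 genes tested. Of the other genes that fell with both, ACOX3 is not shown, and no RefSeq promoter was found for ETFDH or DECR1. The 120 bases before each start are given 5′ to 3′ on the strand of the gene, from RefSeq on GRCh38.p14, whereas the submitters' processing notes name hg19. Capitals mark the GC box GGGCGG and the CCAAT box on either strand. In ETFA a match of each shares letters. For HSD17B10, 2 starts are listed, and the stretch before the first listed is shown.
ETFA, chr15:76311470-76311589, minus strand: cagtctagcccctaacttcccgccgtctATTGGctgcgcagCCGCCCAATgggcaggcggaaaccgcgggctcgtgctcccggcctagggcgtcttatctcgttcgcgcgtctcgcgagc
HSD17B4, chr5:119452377-119452496, plus strand: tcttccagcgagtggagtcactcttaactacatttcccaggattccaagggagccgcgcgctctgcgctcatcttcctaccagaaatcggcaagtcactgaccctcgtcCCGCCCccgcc
HIBCH, chr2:190319827-190319946, minus strand: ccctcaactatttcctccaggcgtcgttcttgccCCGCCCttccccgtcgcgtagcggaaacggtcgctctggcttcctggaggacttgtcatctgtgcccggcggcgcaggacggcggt
PPARD, chr6:35342438-35342557, plus strand: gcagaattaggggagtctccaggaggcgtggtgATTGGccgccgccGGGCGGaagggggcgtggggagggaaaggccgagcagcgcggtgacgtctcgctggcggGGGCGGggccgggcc
IVD, chr15:40405675-40405794, plus strand: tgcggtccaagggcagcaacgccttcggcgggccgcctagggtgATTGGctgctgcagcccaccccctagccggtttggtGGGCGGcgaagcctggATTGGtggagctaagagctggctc
HSD17B10, chrX:53434377-53434496, minus strand: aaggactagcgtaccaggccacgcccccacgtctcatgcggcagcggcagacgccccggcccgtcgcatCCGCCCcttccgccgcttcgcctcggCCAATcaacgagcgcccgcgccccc

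RefSeq promoters were found for 29 of the 36 genes, and motifs were sought on both strands in the 250 bases before the start. The GC box GGGCGG was present in 24 of these 29 genes (82.8%), against 46.2% of all 27305 genes in the promoter table. That background, used for each motif here, holds genes whether or not they were tested, so the shares do not compare like with like. CCAAT was present in 11 of 29 (37.9%), against 37.0% of all genes. The PPAR response element, read as a direct repeat of AGGTCA with 1 base between the copies, was in 0 of the 29 and in 0.022% of all genes. A single copy of AGGTCA was in 2 of 29, ACAD10 and GCDH, against 14.6% of all genes. The estrogen-related receptor element TNAAGGTCA, which contains that copy, was in 0 of 29 and in 1.05% of all genes. The CREB palindrome TGACGTCA was in 2 of 29, ACAD9 and ACOX3, against 2.03% of all genes, and the E-box CACGTG in 2 of 29, ACAD9 and PPARGC1A, against 7.73%. The NRF1 core CGCATGCG was in 3 of 29, ACAD10, ACOT13 and PPARA, against 2.14%. No match says only that these letters are not in this window.

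With sh1, 3 of the 35 genes tested rose and 10 fell, and with sh6, 8 rose and 14 fell. Over all genes tested, 29.0% rose and 30.0% fell with sh1, and 34.2% rose and 33.6% fell with sh6. The share called among the oxidation genes was 37.1% with sh1 and 62.9% with sh6, against 58.9% and 67.8% of all genes. With both hairpins in the same direction, 1 gene rose (IVD) and 7 fell (ETFA, ETFDH, DECR1, ACOX3, HSD17B4, HIBCH and PPARD), where 18.9% of all genes rose and 19.4% fell. Opposite directions were called for 0 of the 35 genes. Changes were small: the median absolute log2 change was 0.12 with sh1 and 0.22 with sh6, against 0.22 and 0.28 over all genes tested. A change of at least 1.5-fold was called for 1 gene with sh1, HADHB, and for 3 with sh6, HSD17B10, PPARGC1A and PPARD. The shares of all genes with a called change of this size, or with opposite calls, were not counted. The median signed log2 change of the 35 genes was -0.05 with sh1 and -0.09 with sh6, against 0.00 and 0.01 over all genes. Centring each library on its median gave 5 rises and 10 falls with sh1, and 3 rises and 7 falls with both hairpins, because GCDH and PPARA were then also called higher with sh1.

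**Figure D1:**
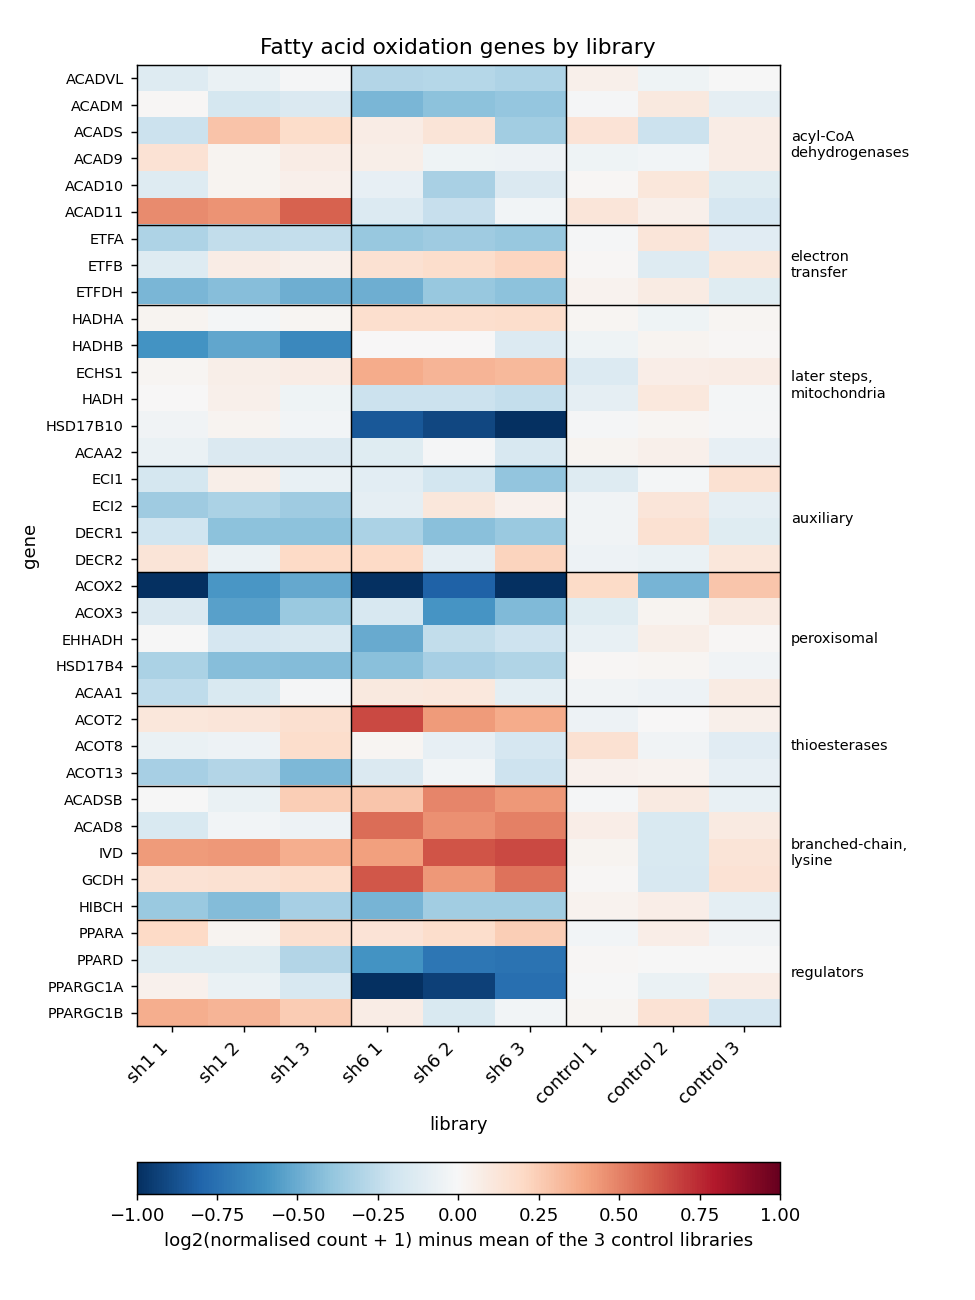
Level of each of the 36 genes in the 9 libraries, as log2(normalised count + 1) minus the mean of the 3 control libraries, grouped by role; colours saturate at 1 in either direction. HADHB is low in the 3 sh1 libraries, HSD17B10 and PPARGC1A are low in the 3 sh6 libraries, and ETFDH and HSD17B4 are low in all 6 hairpin libraries.

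**Figure D2:**
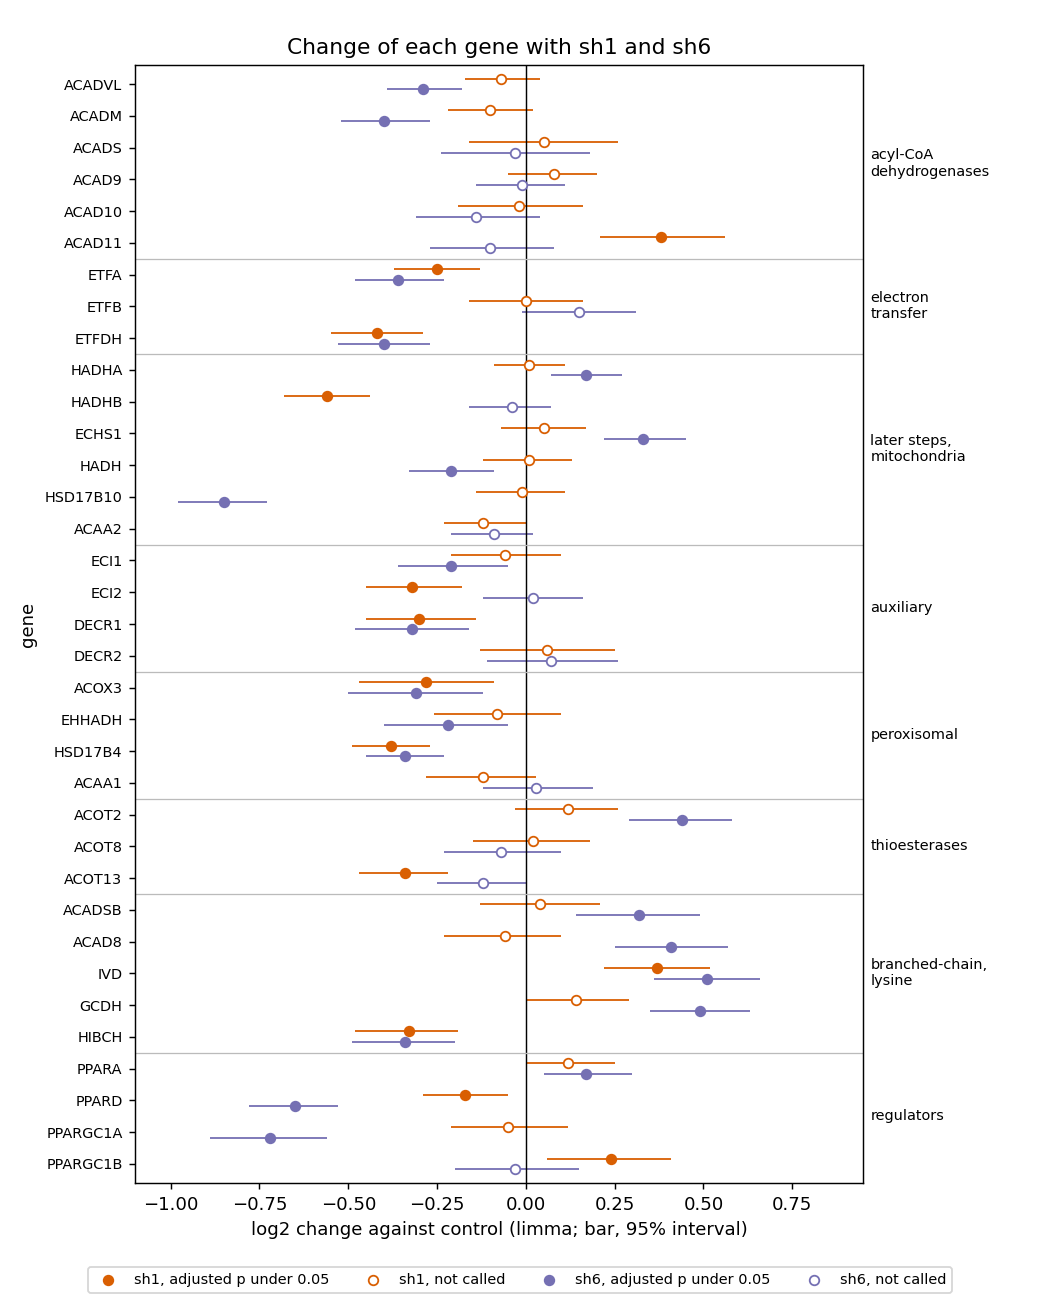
Log2 change of the 35 genes tested with sh1 and with sh6 against the control, with the limma estimate as a point and its 95% interval as a bar; filled points were called at an adjusted p under 0.05. The sh1 estimates of called genes run from -0.56 to 0.38 and the sh6 estimates from -0.85 to 0.51.

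Electrons from the acyl-CoA dehydrogenases pass through ETFA and ETFB, the subunits of the electron transfer flavoprotein, to ETFDH, the membrane enzyme that reduces ubiquinone. ETFDH had 698, 713 and 683 normalised counts with sh1, 681, 736 and 720 with sh6 and 983, 1012 and 882 in the controls. Every hairpin library lay below every control library. ETFDH fell 1.37-fold with sh1 (log2 change -0.42, SE 0.064, limma adjusted p = 1.27e-06) and 1.35-fold with sh6 (log2 change -0.40, SE 0.064, adjusted p = 2.67e-06). ETFA had 1424, 1487 and 1489 counts with sh1, 1354, 1379 and 1354 with sh6 and 1748, 1920 and 1626 in the controls, again without overlap. It fell 1.20-fold with sh1 (adjusted p = 0.000479) and 1.30-fold with sh6 (adjusted p = 4.23e-06). ETFB, the partner subunit, was not called, with 256 ± 19.7 counts with sh1, 290.0 ± 7.06 with sh6 and 256 ± 20.6 in the controls (SD, n = 3 each). Its 95% intervals of the log2 change were -0.16 to 0.16 with sh1 and -0.01 to 0.31 with sh6. The ratio of ETFA to ETFB counts was 5.75 ± 0.31 with sh1, 4.70 ± 0.13 with sh6 and 6.95 ± 1.2 in the controls (SD, n = 3 each). The sh1 ratios overlapped those of the controls, with a highest sh1 ratio of 6.11 and a lowest control ratio of 5.9. Every sh6 ratio lay below every control ratio. Of the exon bases of ETFDH, 10.9% are shared with PPID on the opposite strand, and the sources used here do not give how strand was counted.

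**Figure D3:**
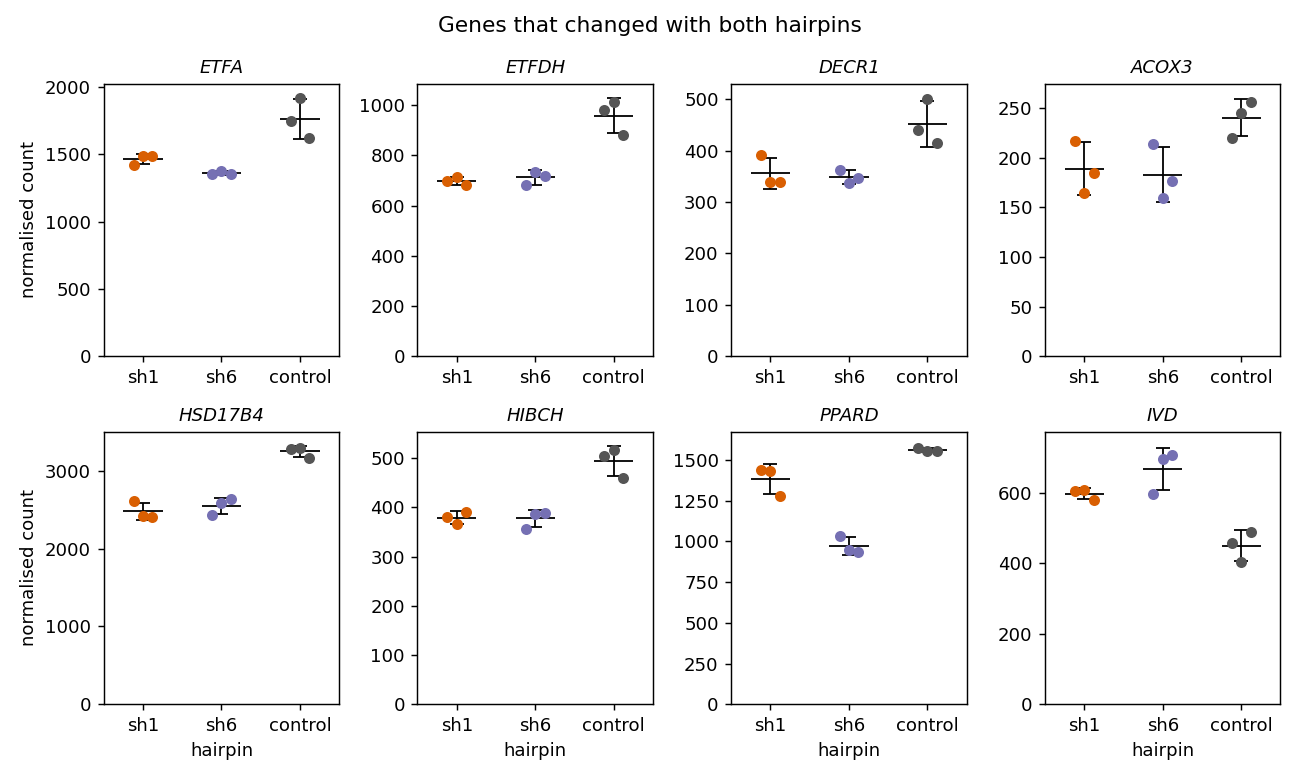
Normalised counts of the 8 genes called in 1 direction by sh1 and by sh6, 1 point per library, with the mean as a line and the SD of 3 libraries as a bar; axes start at 0. ETFA, ETFDH, DECR1, ACOX3, HSD17B4, HIBCH and PPARD lie lower in all 6 hairpin libraries than in the 3 control libraries, and IVD lies higher.

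The acyl-CoA dehydrogenases of straight chains carry out the first step in mitochondria, and ACAD9, ACAD10 and ACAD11 were grouped with them. Of these 6 genes, 1 rose with sh1 (ACAD11), 0 fell with sh1, 2 fell with sh6 and 0 rose with sh6. Of all genes tested, 29.0% rose and 30.0% fell with sh1, and 34.2% rose and 33.6% fell with sh6. ACADM, which takes medium chains, had 1523, 1338 and 1371 counts with sh1, 1106, 1142 and 1157 with sh6 and 1506, 1617 and 1427 in the controls. ACADVL, which takes very long chains, had 2793, 2916 and 3018 counts with sh1, 2491, 2502 and 2462 with sh6 and 3157, 2957 and 3031 in the controls. For both genes the sh6 libraries lay below all the others, and the sh1 libraries overlapped the controls. ACADM fell 1.34-fold with sh6 (limma, log2 change -0.40, SE 0.061, adjusted p = 1.14e-06) and ACADVL fell 1.23-fold (log2 change -0.29, SE 0.052, adjusted p = 1.58e-05), while neither was called with sh1 (adjusted p = 0.157 and 0.281). ACAD11, a family member with less well defined substrates, had 196, 193 and 213 counts with sh1, 128, 120 and 138 with sh6 and 153, 146 and 125 in the controls. It rose 1.42-fold with sh1 (adjusted p = 0.000323), where every library exceeded every control, and was not called with sh6 (adjusted p = 0.322). Reads of ACAD11 are uncertain, since most of its exon bases are shared with other annotated genes. The short-chain enzyme ACADS, the complex I assembly factor ACAD9 and ACAD10 were called with neither hairpin. ACADS was low in every group, with 62.7 ± 11 counts with sh1, 57.0 ± 9.80 with sh6 and 58.7 ± 7.38 in the controls (SD, n = 3 each).

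Of the 6 later steps in mitochondria, 1 was called with sh1 and 4 with sh6, where 58.9% and 67.8% of all genes were called. HSD17B10, a hydroxyacyl-CoA dehydrogenase that is also a subunit of mitochondrial RNase P, had 938, 981 and 946 counts with sh1, 534, 512 and 473 with sh6 and 955, 978 and 958 in the controls. All sh6 libraries lay far below the rest, and the sh1 libraries overlapped the controls. It fell 1.90-fold with sh6 (limma, log2 change -0.85, SE 0.062, adjusted p = 2.60e-13) and was not called with sh1 (log2 change -0.01, 95% interval -0.14 to 0.11). HADH, which acts on shorter hydroxyacyl chains, had 1249 ± 41.3 counts with sh1, 1064 ± 9.11 with sh6 and 1246 ± 83.9 in the controls (SD, n = 3 each), and fell 1.17-fold with sh6 (adjusted p = 0.00222). ECHS1, the short-chain enoyl-CoA hydratase, moved the other way, with 1881, 1938 and 1960 counts with sh1, 2400, 2355 and 2323 with sh6 and 1688, 1947 and 1954 in the controls. It rose 1.27-fold with sh6 (adjusted p = 7.27e-06) and was not called with sh1 (adjusted p = 0.473). ACAA2, the mitochondrial thiolase, was called with neither sh1 nor sh6 (adjusted p = 0.0784 and 0.144), at 1621 ± 51.1, 1648 ± 87.4 and 1764 ± 84.6 counts with sh1, with sh6 and in the controls (SD, n = 3 each). Without control replicate 3 it was called lower with both, at adjusted p = 0.0230 and 0.0460.

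HADHA and HADHB encode the alpha and beta subunits of the trifunctional protein, which carries out the last steps for long chains. Their starts lie 306 bases apart on opposite strands of chromosome 2, and 194 of the 250 bases before either start belong to both upstream regions. The 250 bases before the start of HADHB are given on its strand, with GC boxes in capitals (GRCh38.p14).
HADHB, chr2:26244689-26244938, plus strand: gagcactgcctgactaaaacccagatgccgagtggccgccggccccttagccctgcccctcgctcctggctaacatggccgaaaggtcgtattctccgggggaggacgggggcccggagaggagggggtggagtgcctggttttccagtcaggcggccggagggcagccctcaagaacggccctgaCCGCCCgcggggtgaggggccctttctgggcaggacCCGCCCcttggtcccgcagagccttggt

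The mRNAs of the subunits moved apart. HADHB had 1145, 1214 and 1113 counts with sh1, 1740, 1739 and 1576 with sh6 and 1690, 1769 and 1753 in the controls. HADHA had 3145, 3045 and 3127 counts with sh1, 3466, 3461 and 3484 with sh6 and 3123, 2995 and 3130 in the controls. The sh1 libraries stood apart for HADHB and the sh6 libraries for HADHA. HADHB fell 1.5-fold with sh1 (limma, log2 change -0.56, SE 0.058, adjusted p = 8.92e-10) and was not called with sh6 (log2 change -0.04, 95% interval -0.16 to 0.07). HADHA rose 1.13-fold with sh6 (adjusted p = 0.00414) and was not called with sh1 (log2 change 0.01, 95% interval -0.09 to 0.11). The ratio of HADHB to HADHA counts was 0.364, 0.399 and 0.356 with sh1, 0.502, 0.503 and 0.452 with sh6 and 0.541, 0.591 and 0.560 in the controls. These ratios did not overlap between any 2 of the 3 groups.

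**Figure D4:**
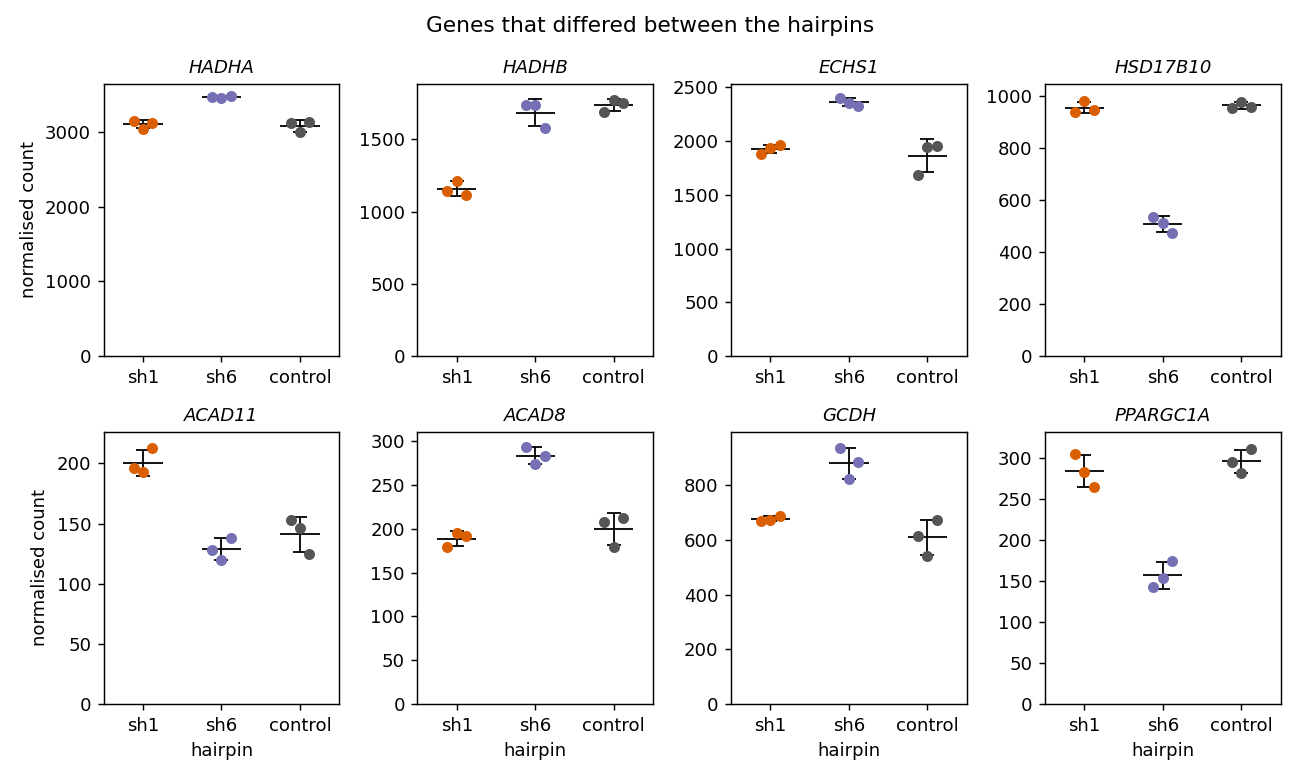
Normalised counts of 8 genes that differed between sh6 and sh1, 1 point per library, with the mean as a line and the SD of 3 libraries as a bar; axes start at 0. HADHB is low with sh1 alone, HSD17B10 and PPARGC1A are low with sh6 alone, ACAD11 is highest with sh1, and ECHS1, ACAD8 and GCDH are highest with sh6.

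The auxiliary enzymes reshape unsaturated chains so that they can enter the main cycle. DECR1, the mitochondrial dienoyl-CoA reductase, had 391, 338 and 339 counts with sh1, 362, 336 and 347 with sh6 and 439, 501 and 414 in the controls. All hairpin libraries lay below the controls, and DECR1 fell 1.27-fold with sh1 (limma, adjusted p = 0.00148) and 1.29-fold with sh6 (adjusted p = 0.000529). DECR2, its peroxisomal counterpart, was not called, with 95% intervals of -0.13 to 0.25 with sh1 and -0.11 to 0.26 with sh6 on the log2 scale. ECI2, an enoyl-CoA isomerase of both organelles, had 636, 655 and 636 counts with sh1, 765, 884 and 841 with sh6 and 797, 889 and 766 in the controls, and fell 1.27-fold with sh1 (adjusted p = 0.000149), while sh6 gave no call (0.791). Of its exon bases, 27.1% lie opposite exons of C6orf201. ECI1, the mitochondrial isomerase, fell 1.17-fold with sh6 (adjusted p = 0.0175), with 591 ± 59.9 counts against 692 ± 67.7 in the controls (SD, n = 3 each). Its libraries overlapped, and the call was lost without control replicate 3 (adjusted p = 0.113) or sh6 replicate 3 (adjusted p = 0.152).

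Under peroxisomal oxidation, with DECR2, ECI2 and ACOT8 counted in other roles, 2 of 4 genes tested fell with sh1 and 3 with sh6, and 0 rose. Over all genes tested, 30.0% fell with sh1 and 33.6% with sh6. HSD17B4, the bifunctional hydratase and dehydrogenase for branched and very long chains, had 2610, 2422 and 2407 counts with sh1, 2431, 2584 and 2638 with sh6 and 3282, 3301 and 3168 in the controls. It fell 1.31-fold with sh1 (limma, log2 change -0.38, SE 0.054, adjusted p = 3.68e-07) and 1.27-fold with sh6 (log2 change -0.34, SE 0.054, adjusted p = 1.69e-06), with no hairpin library inside the control range. ACOX3, an oxidase of branched chains, had 217, 164 and 185 counts with sh1, 214, 159 and 176 with sh6 and 220.0, 245 and 256 in the controls. The highest hairpin library came close to the lowest control, and ACOX3 fell 1.28-fold with sh1 (adjusted p = 0.0103) and 1.31-fold with sh6 (adjusted p = 0.00390). Without sh1 replicate 2 the sh1 call was lost (adjusted p = 0.0906). ACOX2, which oxidises branched chains and bile acid intermediates, lay under the filter, with 8.21, 14.1 and 14.9 counts with sh1, 6.46, 11.9 and 7.45 with sh6 and 24.8, 15.4 and 26.4 in the controls. Tested without a filter among 19240 genes, its levels were called lower, at an adjusted p of 0.0409 with sh1 and 0.00186 with sh6. EHHADH, the other bifunctional enzyme, fell 1.24-fold with sh6 (adjusted p = 0.0234), a call lost without control replicate 2 (0.0695) or sh6 replicate 1 (0.119). ACAA1, the peroxisomal thiolase, was called with neither hairpin, and 19.7% of its exon bases lie opposite exons of DLEC1.

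Acyl-CoA thioesterases release free fatty acids from coenzyme A. ACOT13 had 1324, 1358 and 1223 counts with sh1, 1509, 1632 and 1442 with sh6 and 1717, 1707 and 1578 in the controls. It fell 1.28-fold with sh1 (limma, adjusted p = 1.34e-05), and with sh6 it was not called (adjusted p = 0.0727), although it was under a replicate block (0.0490) and without control replicate 3 (0.0233) or sh6 replicate 2 (0.0300). ACOT2, the enzyme of the mitochondrial matrix, had 474, 477 and 488 counts with sh1, 692, 587 and 568 with sh6 and 422, 438 and 454 in the controls. It rose 1.41-fold with sh6 (adjusted p = 3.62e-06) and was not called with sh1 (adjusted p = 0.162), and since ACOT1 is a near copy of it, its reads may be split between them. ACOT8 of peroxisomes was called with neither hairpin, and 35.3% of its exon bases lie opposite SNX21.

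Most of the 5 genes of amino acid breakdown share the dehydrogenase chemistry. Of the 5, 1 rose and 1 fell with sh1, and 4 rose and 1 fell with sh6. Over all genes tested, 29.0% rose and 30.0% fell with sh1, and 34.2% rose and 33.6% fell with sh6. IVD, which oxidises isovaleryl-CoA from leucine, had 604, 606 and 578 counts with sh1, 597, 695 and 707 with sh6 and 457, 403 and 489 in the controls. Every hairpin library lay above every control, and IVD rose 1.33-fold with sh1 (limma, log2 change 0.37, SE 0.073, adjusted p = 8.02e-05) and 1.48-fold with sh6 (log2 change 0.51, SE 0.073, adjusted p = 3.96e-07). GCDH, which acts on glutaryl-CoA from lysine and tryptophan, had 670.0, 672 and 686 counts with sh1, 933, 820.0 and 885 with sh6 and 612, 542 and 671 in the controls. With sh6 it rose 1.44-fold (adjusted p = 3.03e-07), and with sh1 it was not called (adjusted p = 0.0784), although it was without control replicate 3 (0.0107). ACAD8, the isobutyryl-CoA dehydrogenase of valine breakdown, had 179, 195 and 192 counts with sh1, 293, 274 and 283 with sh6 and 208, 179 and 212 in the controls. It rose 1.42-fold with sh6 (adjusted p = 4.53e-05), and ACADSB, which acts on chains from isoleucine, rose 1.32-fold (adjusted p = 0.00152). Neither was called with sh1, where the log2 changes were -0.06 and 0.04. HIBCH, a hydrolase further along the valine pathway, went the other way, with 381, 366 and 391 counts with sh1, 357, 387 and 388 with sh6 and 505, 517 and 460 in the controls. It fell 1.30-fold with sh1 (adjusted p = 0.000177) and 1.31-fold with sh6 (adjusted p = 0.000102).

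Of the 4 regulators, 2 were called with sh1 and 3 with sh6, where 58.9% and 67.8% of all genes were called. PPARGC1A, the coactivator best known for driving mitochondrial biogenesis, had 305, 283 and 265 counts with sh1, 143, 154 and 175 with sh6 and 295, 282 and 311 in the controls. It fell 1.88-fold with sh6 (limma, log2 change -0.72, SE 0.081, adjusted p = 3.53e-09) and was not called with sh1 (log2 change -0.05, 95% interval -0.21 to 0.12). PPARD, a nuclear receptor for fatty acids in most tissues, had 1438, 1434 and 1277 counts with sh1, 1035, 945 and 936 with sh6 and 1577, 1556 and 1555 in the controls. PPARD fell 1.61-fold with sh6 (adjusted p = 5.71e-11) and 1.13-fold with sh1 (adjusted p = 0.0158). The sh1 call was lost without control replicate 1 (0.0505) or sh1 replicate 3 (0.149), while the 3 groups did not overlap. PPARA, the receptor best known from liver, had 1131, 1005 and 1102 counts with sh1, 1080.0, 1114 and 1165 with sh6 and 966, 1029 and 959 in the controls. It rose 1.14-fold with sh6 (adjusted p = 0.0126), which was lost without sh6 replicate 3 (0.0590), and was not called with sh1 (adjusted p = 0.0810). PPARGC1B, the related coactivator, had 174, 171 and 161 counts with sh1, 142, 121 and 132 with sh6 and 137, 149 and 120 in the controls. It rose 1.25-fold with sh1 (adjusted p = 0.0199), a call lost without control replicate 3 (0.101), sh1 replicate 1 (0.0666) or sh1 replicate 2 (0.0537).

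Set directly against each other, sh6 and sh1 differed in 17 of the 35 genes, 9 higher and 8 lower with sh6, where 30.8% of all genes were higher and 28.9% lower. The 17 were spread over the roles, with 5 of the 6 later mitochondrial steps, 3 of 6 straight-chain dehydrogenases, 3 of 5 genes of amino acid breakdown, 3 of 4 regulators, 2 of 3 thioesterases and 1 of 4 auxiliary enzymes. None of the 3 electron transfer genes or of the 4 genes tested under peroxisomal oxidation was called between the hairpins. For ETFDH the difference was 0.03 on the log2 scale (95% interval -0.10 to 0.16), for HSD17B4 it was 0.04 (-0.07 to 0.15) and for HIBCH -0.01 (-0.15 to 0.14). BBOX1 itself was 1.81-fold higher with sh6 than with sh1 (limma, adjusted p = 2.73e-11).

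In 8 of the 35 genes neither hairpin gave a call: ACADS, ACAD9, ACAD10, ETFB, ACAA2, DECR2, ACAA1 and ACOT8. The 95% intervals of their log2 changes together spanned -0.31 to 0.31. Over all genes tested, 58.9% were called with sh1 and 67.8% with sh6, and the share called with neither was not counted. In the authors' deposited table, whose compared samples are not stated, 10 of the 36 genes have an adjusted p under 0.05, against 33.1% of its 16686 genes with a value. In the authors' deposited table these are ETFA, ETFDH, DECR1, ACOX2, ACOX3, HSD17B4, HIBCH and PPARD with negative log2 values, and IVD and GCDH with positive ones. The direction of those log2 values is not stated there, but for each of these genes the sign is that of the change with either hairpin against the control.

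Levels of different genes were compared as counts per kilobase of the longest coding transcript in GENCODE 29. In control cells ACADVL was highest, at 1310 counts per kilobase, followed by ECHS1 at 1150, HSD17B4 at 1130, HADHA at 1010 and HSD17B10 at 1000. At the other end stood ACADSB at 31.6, ACADS at 30.1, PPARGC1B at 12.8 and ACOX2 at 9.16 counts per kilobase. PPARD stood at 414 counts per kilobase, PPARA at 98.5 and PPARGC1A at 46.8. These values assume 1 transcript length per gene.

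The genes around the oxidation cycle were described from further lists, by counts and with up to 3 genes named for each, and the counts with both hairpins stand beside 18.9% of all genes higher and 19.4% lower with both. Of the 7 carnitine shuttle genes, which carry acyl chains into mitochondria, 3 rose with both hairpins and 0 fell with both. With sh1, 3 rose and 0 fell, and with sh6, 4 rose and 2 fell. For CPT1C, a carnitine palmitoyltransferase of the endoplasmic reticulum, the rise was 2.5-fold with sh6 and 1.46-fold with sh1. The carrier SLC25A20 rose 1.31-fold and 1.42-fold, and the outer membrane enzyme CPT1A 1.24-fold and 1.31-fold (limma, adjusted p from 4.23e-14 to 0.00193 for the 3 genes). Of 14 genes of fatty acid uptake and activation tested, 7 fell with both, 3 rose with both and 3 were called in opposite directions. CD36, the fatty acid translocase, had 9.47, 8.25 and 14.1 counts with sh1, 8.53, 10.3 and 11.2 with sh6 and 121, 104 and 115 in the controls, a fall of 10.68-fold and 11.31-fold (adjusted p = 1.32e-14 and 6.15e-15). With means of 10.6 and 10.0 counts with sh1 and sh6, CD36 passed the filter only through its control level. Tested without a filter it was still called lower (adjusted p = 8.34e-14 and 4.01e-14), and under the stricter filter it was not tested. On the deposited scale, which understates changes of low genes, its log2 changes were -1.60 and -1.62. ACSL1, which activates long chains to acyl-CoA, fell 2.44-fold with sh1 and 2.47-fold with sh6, and the transporter SLC27A1 2.52-fold and 1.27-fold. The sh6 call of SLC27A1 was lost without sh6 replicate 3 (adjusted p = 0.0553).

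Of 21 further oxidation enzymes and thioesterases tested, 6 fell with both hairpins and 1 rose. DBI, the acyl-CoA-binding protein, fell 1.80-fold with sh1 and 2.02-fold with sh6, and ECHDC1, which removes aberrant carboxylated acyl-CoA, 1.39-fold and 2.09-fold. ACOT7, a cytosolic thioesterase, rose 1.73-fold and 1.60-fold. Of 17 further peroxisomal genes tested, 4 fell and 2 rose with both, with the peroxisomal protease LONP2 down 1.26-fold and 2.04-fold, the fatty acyl-CoA reductase FAR2 down 1.58-fold with either and the racemase AMACR down 1.44-fold and 1.24-fold. Peroxisome assembly genes were divided, with 4 of 15 tested lower and 4 higher with both, and 1 called in opposite directions. The import factor PEX14 rose 2.25-fold and 3.16-fold, while PEX11A, which acts in peroxisome division, fell 1.59-fold and 2.24-fold and PEX13 1.38-fold and 1.88-fold.

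Of 7 ketone body genes tested, 3 fell with both, 1 rose with both and 1 was called in opposite directions. The hydroxybutyrate dehydrogenases BDH2 and BDH1 were among those that fell, BDH2 2.01-fold with sh1 and 1.45-fold with sh6, and BDH1 1.24-fold with sh1 and 1.68-fold with sh6. The sh1 call of BDH1 was lost without control replicate 1 (limma, adjusted p = 0.0805). Of 19 further genes of branched-chain amino acid and lysine breakdown tested, 4 fell with both and 0 rose with both, a share of falls near that of all genes. With sh1 alone considered, 4 rose and 5 fell, and with sh6, 3 rose and 10 fell. AUH, a hydratase further along the leucine pathway than IVD, fell 1.67-fold and 1.90-fold, and DHTKD1 of the lysine pathway 1.37-fold and 1.76-fold. Of 24 PPAR partners, coregulators and classical PPAR targets tested, 4 fell and 3 rose with both, and 2 were called in opposite directions. ANGPTL4, a lipase inhibitor induced by PPARs and also by hypoxia, had 4.38, 9.05 and 3.46 counts with sh1, 27.9, 28.7 and 12.9 with sh6 and 44.3, 37.3 and 50.2 in the controls, a fall of 7.80-fold and 1.89-fold (adjusted p = 9.79e-09 and 0.00196). Its mean of 5.63 counts with sh1 lies under the filter, which it passed through the other groups, and without a filter it was also called (adjusted p = 2.56e-08 and 0.00317). The heterodimer partner RXRB rose 1.46-fold and 1.43-fold, and PPRC1, a relative of PPARGC1A, 1.33-fold and 1.47-fold. Of 18 genes that supply flavin and coenzymes to the dehydrogenases or help assemble complex I beside them, 6 fell and 2 rose with both. In this list 1 gene was called in opposite directions. SLC52A3, a riboflavin transporter, had 216, 227 and 212 counts with sh1, 72.2, 62.0 and 76.6 with sh6 and 349, 320.0 and 292 in the controls, a fall of 1.47-fold and 4.56-fold (adjusted p = 3.43e-05 and 1.21e-16). PANK3, which starts coenzyme A synthesis, fell 1.53-fold and 1.52-fold, and TMEM126B 1.39-fold and 1.31-fold.

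**Figure D5:**
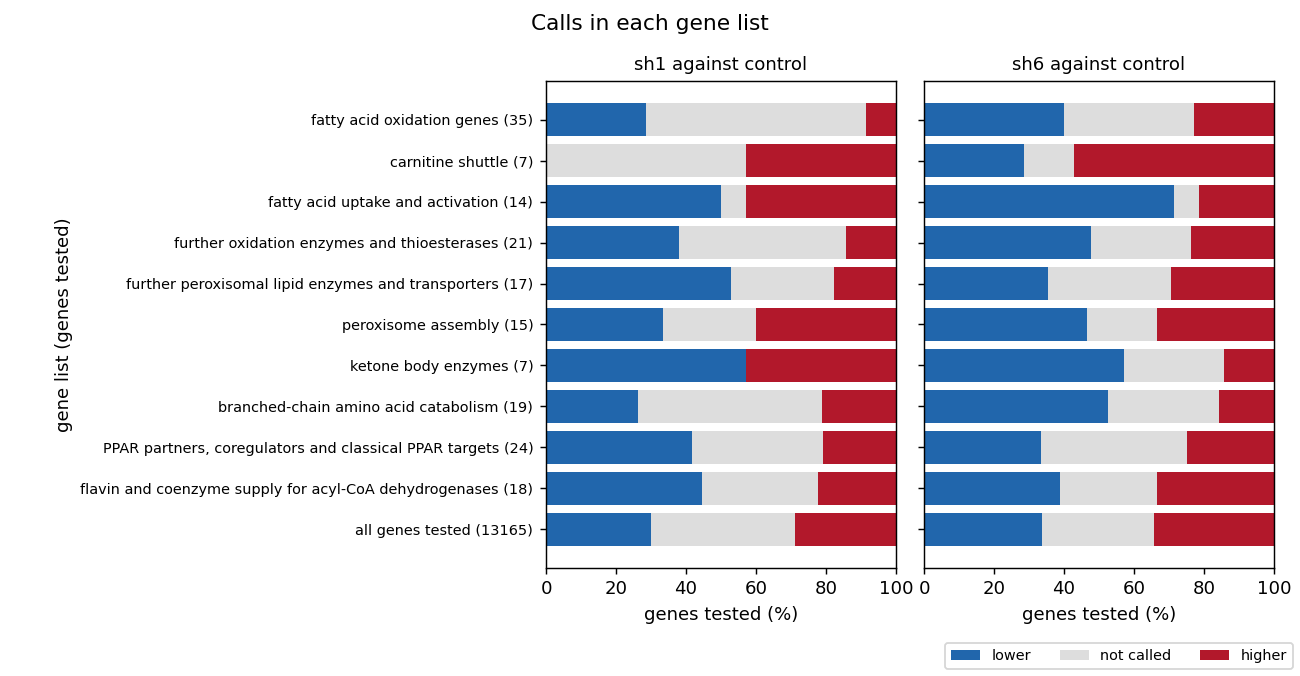
Share of genes tested in each list that were called lower, not called or called higher with sh1 and with sh6 against the control, with the number tested in brackets and all 13165 genes as the last bar. Among the 35 fatty acid oxidation genes, 22 were not called with sh1 and 13 were not called with sh6.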

How the data were processed

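Polyadenylated RNA of 9 libraries was sequenced in 100-base paired reads, per the labels. Tools named in the submitters' processing notes, without versions, are cutadapt, STAR, Salmon and DESeq2, with the build hg19. The authors deposited log2-like variance-stabilised values with a common floor of 5.02, which the table's name calls batch-corrected. The authors also deposited a log2 fold change and an adjusted p-value per gene, for a comparison not described. The members and lists were chosen with earlier results of these data known.

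Inverting the transformation gave normalised counts, and the steps of low values gave what 1 read is worth in each library. Of values between 0.5 and 20.5 reads, 75.8% to 80.2% were whole within 0.05. Genes with a mean at least 1 above the floor (16.2 normalised counts) were tested with limma 3.58.1 in R 4.3.3 (eBayes with a mean trend, 3 groups in 1 model, two-sided, Benjamini-Hochberg over all genes, adjusted p under 0.05). The fit was also run on simulated counts with independent libraries and far fewer changed genes than here, so that run does not check the calls given. Genes named are BBOX1, all members and up to 3 per further list called with both hairpins, by the largest mean change, and a few results under this rule are not reported here. Intervals of 95% are confidence intervals of the log2 change, from limma's standard error, and reflect only the scatter among libraries. Alternatives were other filters, scalings, variance priors, fits to 2 groups, a replicate block and leaving out each library. Exon overlaps and lengths came from GENCODE 29. Other steps used Python 3.11.15, scipy 1.17.1, pandas 2.3.3 and matplotlib 3.10.9.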

Additional observations from a re-analysis of the deposited data

Results flagged for a closer look

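In 17 genes the change with sh6 differed from the change with sh1 in limma's test of the difference (adjusted p under 0.05 over all genes, 3 against 3 libraries); such differences were found for 59.7% of all genes tested. Values are log2 differences, sh6 minus sh1. HSD17B10 differed by -0.84, PPARGC1A by -0.67, PPARD by -0.48, ACAD11 by -0.48 and ACADM by -0.30. PPARGC1B differed by -0.26, ACADVL by -0.22 and HADH by -0.22. On the positive side, HADHB differed by 0.52, ACAD8 by 0.47, GCDH by 0.35, ECI2 by 0.34 and ACOT2 by 0.32. ECHS1 differed by 0.28, ACADSB by 0.28, ACOT13 by 0.22 and HADHA by 0.16. The residual level of BBOX1 also differed between the hairpins, at 23.0% of the control with sh6 and 12.7% with sh1, and its part in these differences was not tested. Without sh6 replicate 2 the difference of PPARGC1B was not called (adjusted p = 0.0598).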

How the results depend on the processing

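Of 1782 values of single oxidation genes under the alternatives, 1755 kept their direction or stayed uncalled on the same side of the threshold, 12 lost their call, 15 gained one and 0 calls changed sign. With each library centred on its median, the oxidation genes called higher were 5 with sh1 and 3 with both hairpins (GCDH, PPARA and IVD). Leaving out 1 library gave 2 to 4 rises and 9 to 11 falls with sh1, 7 to 9 rises and 13 to 15 falls with sh6, and 9 to 10 rises and 7 to 9 falls between sh6 and sh1. With both hairpins it gave 1 to 2 rises and 6 to 9 falls. The 2 rises were IVD with PPARA (without control replicate 2 or sh1 replicate 2) or with GCDH (without control replicate 3). Over all genes, leaving out 1 library gave 7000 to 8014 calls with sh1, 8337 to 8889 with sh6, 7108 to 8134 between the hairpins and 4509 to 5262 with both. The fit with a replicate block gave 10 falls with sh1, 15 with sh6 and 8 with both. Of the 9 pairs of same-numbered libraries, 3 had deviations correlated above 0.1, against 2 of 18 other pairs, with median r of 0.064 and -0.052. Of the 9 libraries, 7 correlated best with their own number. Whether same-numbered libraries were paired is not stated, and the main fit took no pairing. Genes below about 16.2 normalised counts, such as ACOX2, are limited by depth.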
